A study of Arabidopsis thaliana with 6 samples.

Results

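The KNOX genes encode homeodomain proteins of the three-amino-acid-loop-extension class, and their transcripts were followed through an estradiol induction experiment on Arabidopsis thaliana shoot tips. The class I genes described here are STM (AT1G62360), KNAT1 (also called BP, AT4G08150), KNAT2 (AT1G70510) and KNAT6 (AT1G23380). The class II genes are KNAT3 (AT5G25220), KNAT4 (AT5G11060), KNAT5 (AT4G32040) and KNAT7 (AT1G62990). These 8 loci were fixed by name, and all 15 array probes that a RefSeq accession tied to one of them were used, among 21297 genes measured on the arrays. Each of the 8 genes was well above the scanner background on every array, as were 13 of the 15 probes.

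Class I KNOX proteins keep cells of the shoot meristem undetermined. They raise cytokinin and lower gibberellin there, and they are silenced where a leaf begins to form. Class II KNOX genes are expressed broadly in differentiating organs and act against class I genes in leaf development. Proteins of both classes work in dimers with BELL homeodomain proteins, which help to carry them into the nucleus.

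Each of the 6 samples was total RNA from the tissue labelled shoot apical meristem and juvenile leaves, taken at 21 days of age, with 30 plants pooled and 1 array per sample. All plants carried XVE, a chimeric activator that drives its target promoter once estradiol is present, and in all but 1 sample they also carried the construct AMY3C-EY. The arrays of AMY3C-EY plants held the estradiol time course, in which 20 µM estradiol was painted on meristems and tissue was taken 1, 3 or 6 h later, with untreated plants as 0 h. The remaining arrays were plants with XVE alone at 6 h of estradiol (the XVE array, or XVE) and AMY3C-EY plants at 6 h of the solvent DMSO (the DMSO array, or DMSO). Neither the promoter that drives XVE nor the product of AMY3C-EY is given in the sources used here, and the number of independent lines is not given either. With 1 array per group there is no replicate spread and no test, so every difference below describes a pair of arrays.

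The 4 time course arrays shared 1 slide, and the XVE and DMSO arrays shared another. Any difference of the XVE or DMSO array from a time course array is therefore also a difference between slides, and line, solvent and slide cannot be told apart. A level is log2 of the processed signal minus log2 of the array's 75th percentile signal, which ranged between 341.6 and 1435.4 intensity units over the arrays. Between 67.9% and 77.5% of spots were well above background, and 0 were saturated. Errors given with ± are the scanner software's estimate for the spot, combined for differences, and they leave out any variation between plants. The meristem gene CLV3, which encodes the stem cell signal peptide, was well above background on all 6 arrays, at levels between 0.16 and 1.03. WUS, UFO and LAS, also meristem or boundary regulators, were not well above background on any array. All 12 mesophyll marker genes were measured on all arrays, so the samples held leaf RNA as labelled. Fewer cells of a type and less RNA per cell cannot be told apart in such bulk samples.

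None of the 8 KNOX genes was 2-fold apart from the untreated plants at any time of estradiol treatment. At 1 h the count was 0 of 8, where 12.7% of 18552 genes were at least 2-fold apart in either direction. At 3 h it was 0 of 8, against 7.37% of 19235 genes, and at 6 h it was 0 of 8, against 5.45% of 19181 genes. With 8 genes, counts of 0 lie near these shares. These comparisons share the 0 h array. The median KNOX difference was -0.47 at 1 h, -0.25 at 3 h and -0.26 at 6 h on the log2 scale. Over all genes measured the medians were -0.08, -0.05 and -0.06 at the same times. At 1 h, 7 of the 8 KNOX genes were below their 0 h level, as were 55.3% of all genes, and KNAT6 was the exception. KNAT3 was above its 0 h level too, by 0.14, when its brighter probe alone was used, and by 0.10 with the normexp background correction. That correction made the 1 h difference smaller in size for every KNOX gene. STM was then at -0.12, KNAT1 at -0.11, KNAT2 at -0.26, KNAT4 at -0.49, KNAT5 at -0.33, KNAT7 at -0.05 and KNAT6 at 0.14. The median of all genes at 1 h became -0.02.

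**Figure D1:**
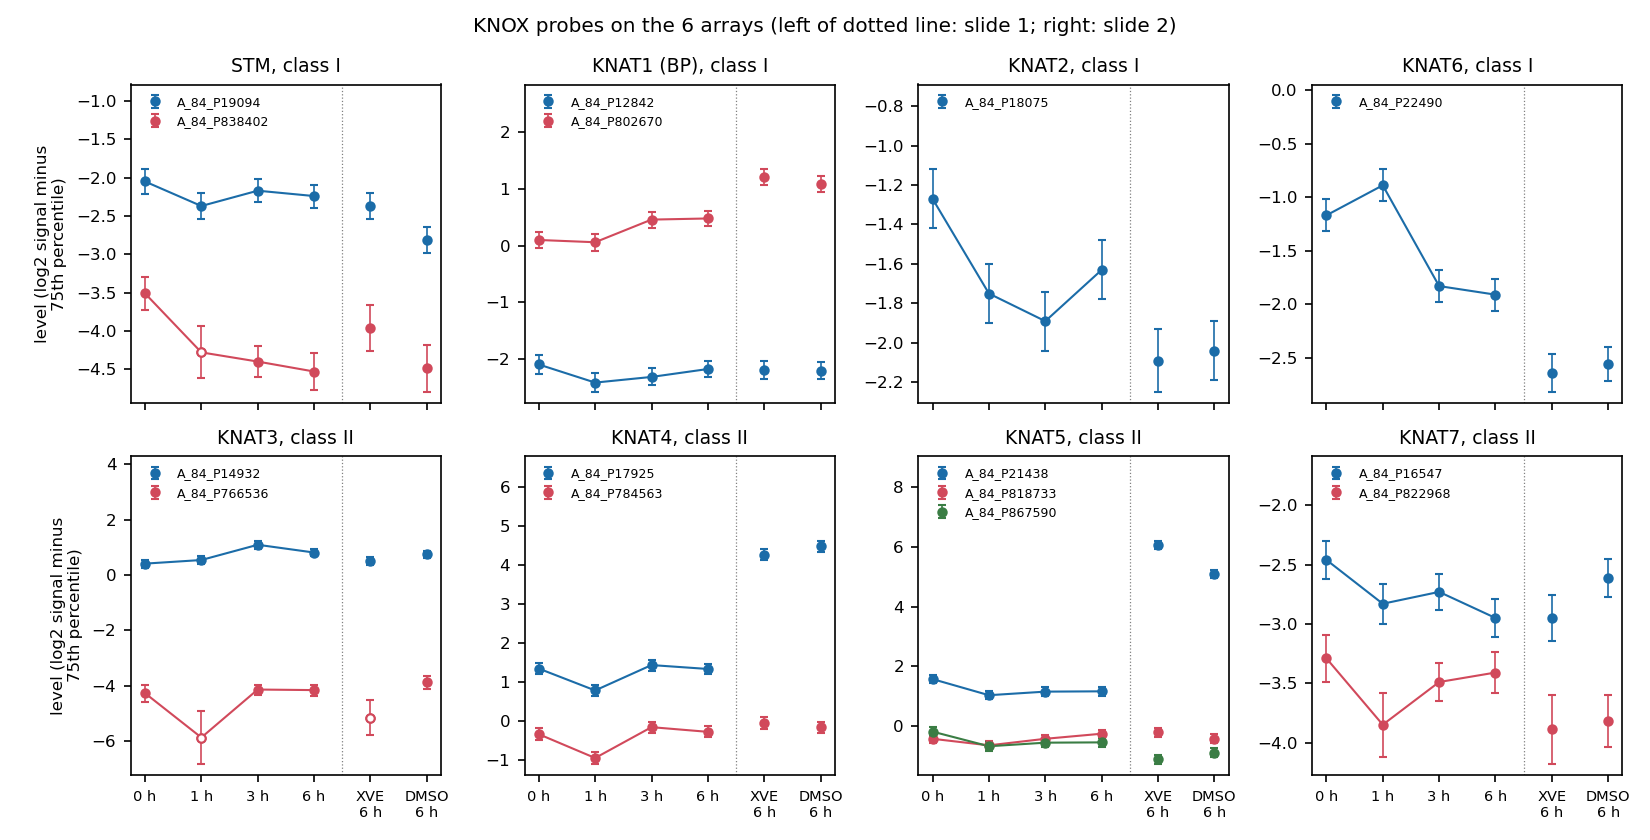
Level of each KNOX probe on the 6 arrays (y axis, log2 signal minus the array's 75th percentile), with bars for the scanner's spot error and open circles where a probe was not well above background. The dotted line parts the slides; KNAT6 is low on both arrays to its right, and 1 probe each of KNAT4 and KNAT5 is high there while the other probes of these genes are not.

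Among the class I genes, STM maintains the shoot meristem, and mutants without it fail to form one. Its brighter probe, A_84_P19094, had levels of -2.05, -2.37, -2.17 and -2.24 at 0, 1, 3 and 6 h, with -2.37 for XVE and -2.81 for DMSO. The treated time points lay close together just under 0 h, and the DMSO array was the lowest. The dimmer STM probe, A_84_P838402, had -3.51, -4.28, -4.40 and -4.53 at 0, 1, 3 and 6 h, with -3.96 for XVE and -4.49 for DMSO. It was highest at 0 h and was not well above background at 1 h. At 6 h against 0 h the dimmer probe differed by -1.02 ± 0.32 and the brighter by -0.19 ± 0.22. The dimmer probe passes 2-fold, as did 5.66% of 25971 probes in that comparison. The mean of both probes was -0.61, short of 2-fold.

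KNAT1 (BP) shapes internodes and pedicels and acts in the meristem's periphery. Its probe A_84_P12842 had levels of -2.10, -2.42, -2.32 and -2.18 at 0, 1, 3 and 6 h, with -2.20 for XVE and -2.21 for DMSO. These levels span little, with the 1 h array lowest. Its other probe, A_84_P802670, had 0.10, 0.06, 0.46 and 0.48 at 0, 1, 3 and 6 h, with 1.21 for XVE and 1.09 for DMSO. On this probe both arrays of the second slide were above all 4 time course arrays. The XVE array was 1.11 above 0 h on this probe, against -0.10 on the other. For the gene as the mean of both probes the difference was 0.50 for XVE and 0.44 for DMSO against 0 h.

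KNAT2, whose ectopic expression affects the carpel, and KNAT6, which acts with STM in the meristem and at organ boundaries, are close relatives measured by 1 probe each. KNAT2 had levels of -1.27, -1.75, -1.89 and -1.63 at 0, 1, 3 and 6 h, with -2.09 for XVE and -2.04 for DMSO. The 0 h array was the highest and the second slide the lowest, with all differences from 0 h between -0.36 and -0.82. The 3 h array lay 0.20 ± 0.22 above XVE and 0.14 ± 0.21 above DMSO, within 2 combined spot errors. With the normexp background correction KNAT2 was at -1.47 for XVE and -1.63 at 3 h, so the slides overlapped. KNAT6 had levels of -1.17, -0.89, -1.83 and -1.91 at 0, 1, 3 and 6 h, with -2.64 for XVE and -2.56 for DMSO. The arrays fell into 3 tiers, with 0 and 1 h high, 3 and 6 h in between, and the XVE and DMSO arrays low.

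Within each KNAT6 tier the neighbours did not differ by more than 2 combined spot errors. The difference was 0.29 ± 0.21 for 1 h against 0 h, 0.08 ± 0.21 for 3 h against 6 h, and -0.08 ± 0.24 for XVE against DMSO. Every other pair of arrays differed by more than 2 combined spot errors. The tiers depended on background handling. With the normexp background correction the levels were -1.69 at 3 h, -1.63 at 6 h, -1.79 for XVE and -2.13 for DMSO. XVE then lay nearer to 3 and 6 h than to DMSO. At 6 h of estradiol KNAT6 was -0.74 from 0 h, and on the 4 time course arrays its levels spanned 1.03. A span of at least 2-fold over these arrays was also found for 23.2% of 18514 genes. The span of KNAT6 runs between 1 h and 6 h, and no single comparison with 0 h in the time course reached 2-fold.

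Against 0 h, KNAT6 was 2.61-fold lower on the DMSO array and 2.76-fold lower on the XVE array. At least 2-fold lower were 4.07% of all genes on the DMSO array and 7.25% on the XVE array. These comparisons share the 0 h array. The difference of 6 h estradiol was 0.65 against DMSO and 0.73 against XVE, short of 2-fold in both, and both comparisons share the 6 h array. With the normexp background correction the value for XVE against 0 h was -0.81, short of 2-fold, and that for 6 h estradiol against XVE was 0.15. KNAT2 and KNAT6 were both lower on the second slide than on all 4 time course arrays, a pattern shared by 13.4% of 17995 genes. As means of their probes, KNAT1, KNAT4 and KNAT5 were higher there than on all 4, as were 14.2% of genes. The gap was clear on 1 probe of each of these genes and not on their other probes. STM, KNAT3 and KNAT7 overlapped between the slides, and so did KNAT2 with the normexp background correction.

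Class II has KNAT3, KNAT4 and KNAT5, which are closely related, and KNAT7, a regulator of secondary wall formation. KNAT3 has roles in leaf development and responses to abscisic acid. Its bright probe, A_84_P14932, had levels of 0.41, 0.54, 1.09 and 0.81 at 0, 1, 3 and 6 h, with 0.51 for XVE and 0.74 for DMSO. The 3 h array was the highest, by 0.69 ± 0.20 over 0 h, and the second slide lay inside the range of the time course. The dim probe, A_84_P766536, had -4.26, -5.86, -4.13 and -4.15 at 0, 1, 3 and 6 h, -5.14 for XVE and -3.87 for DMSO. It was not well above background at 1 h or on the XVE array, and its 1 h value sets the gene mean there, -0.73 from 0 h, while the bright probe gave 0.14. A time course span of 1.14 for the KNAT3 mean rests on the same dim value.

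KNAT7 had levels of -2.46, -2.83, -2.73 and -2.95 at 0, 1, 3 and 6 h, with -2.95 for XVE and -2.61 for DMSO on probe A_84_P16547. On probe A_84_P822968 they were -3.29, -3.85, -3.49 and -3.41 at 0, 1, 3 and 6 h, with -3.89 for XVE and -3.82 for DMSO. Both probes were highest at 0 h, and the slides overlapped on both. The gene differed from 0 h by between -0.23 and -0.55 in the 5 comparisons. With the normexp correction the XVE value was 0.05.

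**Figure D2:**
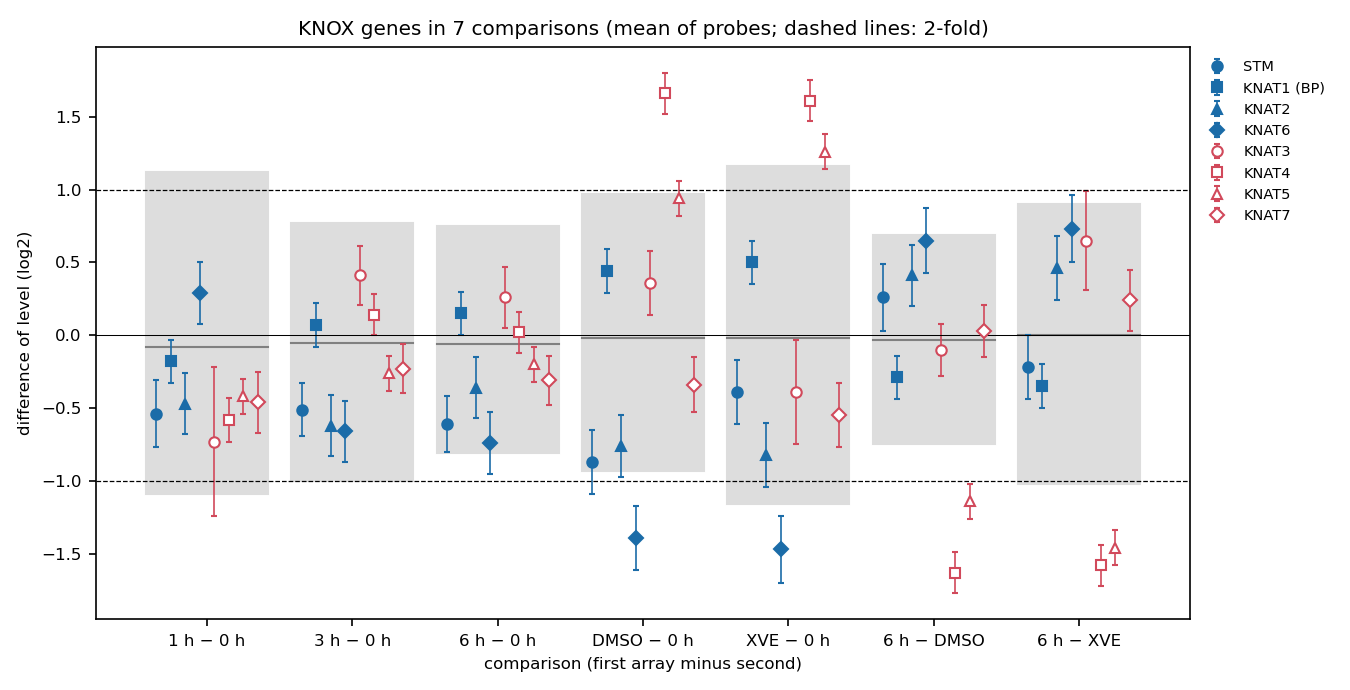
Difference in level (log2) of each KNOX gene, as the mean of its probes, in the 7 comparisons, with bars for the combined spot error, a grey box for the 5th to 95th percentile of all genes and a grey line for their median. In the 3 estradiol time points against 0 h all gene values lie short of 2-fold, and KNAT4, KNAT5 and KNAT6 pass 2-fold only in comparisons between slides.

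KNAT4 and KNAT5 were the KNOX genes at least 2-fold higher in any comparison, both on the second slide. KNAT4 was 3.16-fold higher on the DMSO array and 3.04-fold higher on the XVE array than at 0 h. KNAT5 was 1.92-fold higher on the DMSO array, short of 2-fold, and 2.39-fold higher on the XVE array. The 6 h estradiol array lay -1.63 from DMSO and -1.58 from XVE for KNAT4, and -1.14 from DMSO and -1.46 from XVE for KNAT5. Together with KNAT6, the KNOX counts were 2 of 8 for DMSO against 0 h (8.68% of all genes, with 4.61% higher) and 3 of 8 for XVE against 0 h (14.5%, with 7.25% higher). They were 2 of 8 lower for 6 h estradiol against DMSO (3.94%, with 2.42% lower) and 2 of 8 lower against XVE (8.92%, with 5.22% lower). These counts for KNAT4 and KNAT5 rest on 1 probe of each gene.

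The KNAT4 probe A_84_P17925 had levels of 1.34, 0.78, 1.43 and 1.33 at 0, 1, 3 and 6 h, with 4.26 for XVE and 4.47 for DMSO. Its signals were 1403.2, 827.2, 3873.8 and 2042.3 at 0, 1, 3 and 6 h, 6551.0 for XVE and 20090.6 for DMSO. The slides did not overlap, and the smallest gap between them was 2.83 log2 units. The other KNAT4 probe, A_84_P784563, had levels of -0.34, -0.95, -0.16 and -0.28 at 0, 1, 3 and 6 h, with -0.05 for XVE and -0.16 for DMSO. On that probe the slides differed by 0.33 in their means, against 3.15 on the first.

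The KNAT5 probe A_84_P21438 had levels of 1.57, 1.03, 1.15 and 1.16 at 0, 1, 3 and 6 h, with 6.06 for XVE and 5.10 for DMSO. Again the second slide lay above all time course arrays, with a smallest gap of 3.53. Probe A_84_P818733 had -0.43, -0.65, -0.43 and -0.26 at 0, 1, 3 and 6 h, -0.21 for XVE and -0.43 for DMSO. Probe A_84_P867590 had -0.19, -0.68, -0.56 and -0.55 at these times, -1.12 for XVE and -0.89 for DMSO. On the last probe the second slide was the lower one, opposite to A_84_P21438, and on A_84_P818733 the slides overlapped.

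Without the pair of probes that part the slides, KNAT4 differed from 0 h by 0.18 on the DMSO array and 0.29 on the XVE array, and KNAT5 by -0.35 and -0.36 on these arrays. The 6 h estradiol array then lay -0.13 from DMSO and -0.23 from XVE for KNAT4, and 0.25 from DMSO and 0.26 from XVE for KNAT5. This setting was chosen after seeing the data. It left 1 KNOX gene 2-fold apart, KNAT6, on the DMSO and on the XVE array against 0 h, and 0 in both comparisons of 6 h estradiol.

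Such probes were rare. Of 24167 probes well above background on all 6 arrays, 139 (0.575%) differed by 2-fold or more in each of the 8 pairings of a first-slide with a second-slide array, 107 of them (0.443%) higher on the second slide. The KNOX family held 2 of them. In 63 of the 139 cases the gene had another probe well above background throughout, and in 61 of these no other probe parted the slides the same way on every pairing. By the looser measure of slide means at least 2-fold apart the same way, 10 of the 63 had such another probe. For comparison, of 1277 probes at least 2-fold apart at 1 h against 0 h in genes with another probe, 780 (61.1%) had no other probe past 2-fold the same way, a criterion on 1 pair of arrays. For the 63 probes that parted the slides, the median difference between slide means was 1.98 in size, and they were picked for a large difference. It was 0.19 in the same direction for the other probes of their genes, which, except in AT1G23390, were not picked so. Spots within 2 rows and columns of the KNAT4 and KNAT5 probes had median slide differences of 0.14 and -0.07, and the highest were 1.41 and 1.27. The sequences of the probes were not used here, and binding of transcripts from relatives in the family or from the introduced constructs was not tested.

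**Figure D3:**
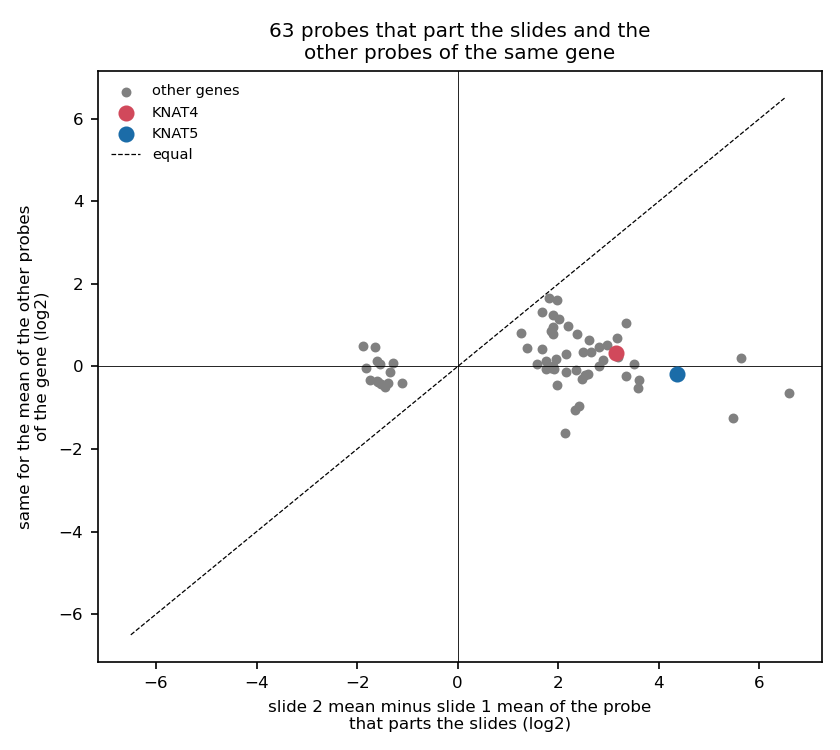
Difference between slide means (second minus first, log2) of the probes that part the slides, on the x axis, and the mean of the other probes of the same gene on the y axis, for 63 probes. The dashed line marks equal values. KNAT4 lies at 3.15 across and 0.33 up, and KNAT5 at 4.36 across and -0.19 up.

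Markers of leaf mesophyll differed between the arrays, most between XVE and the rest. Their median difference from 0 h was 0.40 at 1 h, 0.00 at 3 h, -0.37 at 6 h, 1.19 for XVE and 0.21 for DMSO. On the XVE array 8 of 12 were at least 2-fold higher than at 0 h (7.25% of all genes), led by the antenna genes LHCA3 at 2.17, LHCA2 at 2.14 and LHCB3 at 1.46 and the Calvin cycle gene GAPB at 1.64. Of the LHCA3 probes, 1 parted the slides, with slide means 2.02 apart, against 1.14 for the mean of its other probes. At 6 h of estradiol 9 of 12 were at least 2-fold lower than for XVE (5.22% of all genes), with the Rubisco activase gene RCA at -2.45, LHCA3 at -2.32, LHCA2 at -2.23 and LHCB3 at -2.12. Against DMSO 3 of 12 were lower at 6 h of estradiol (2.42% of all genes), LHCA2 at -1.10, LHCA3 at -1.02 and RCA at -1.02. Against 0 h, RCA alone was 2-fold lower at 6 h of estradiol (-1.04), where 5.45% of all genes were 2-fold apart in either direction. LHCA2 alone was 2-fold higher for DMSO against 0 h (1.00), as were 4.61% of all genes. The summed mesophyll level was 9.01, 9.41, 8.93 and 8.64 at 0, 1, 3 and 6 h, 9.92 for XVE and 9.14 for DMSO on the log2 scale. The summed level of the 4 measured meristem and boundary markers ranged between 1.14 and 1.64 over the arrays. CLV3 had the highest level of the 4 on every array and so weighs most in this sum. The sum also holds CUC3, which was not well above background for XVE, and CUC2, whose probes disagreed. The part of tissue make-up in the KNOX differences was not tested.

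The boundary gene CUC2, which acts with STM in meristem formation, had probes that disagreed in direction on the second slide. Probe A_84_P22576 was -1.04 on the DMSO array and -0.90 on the XVE array from 0 h, whereas probe A_84_P832719 was 1.35 and 1.99. CUC2 is named for this disagreement, which was seen in its values.

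KNATM encodes a KNOX protein without a homeodomain that binds BELL proteins and is expressed at organ boundaries. Its gene mean was -2.01, -2.10, -2.74 and -2.47 at 0, 1, 3 and 6 h, with -2.22 for XVE and -2.14 for DMSO. This mean stood lowest at 3 h, -0.73 from 0 h, and in none of the 7 comparisons did it reach 2-fold. Its probes disagreed. For XVE against 0 h, probe A_84_P22784 gave 0.84 and probe A_84_P861444 gave -1.26. At 6 h of estradiol against 0 h they gave 0.03 and -0.95. Probe A_84_P861444 was well above background on 5 arrays.

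The BELL partners were measured for 11 of 13 genes, and BLH5 and BLH11 were not well above background on any array. None was 2-fold apart from 0 h at 1, 3 or 6 h of estradiol or on the DMSO array, and none at 6 h of estradiol against DMSO. Over all genes the shares were 12.7%, 7.37%, 5.45%, 8.68% and 3.94% in these comparisons, and counts of 0 of 11 lie near them. The BELL medians against 0 h were -0.15 at 1 h, 0.05 at 3 h and 0.01 at 6 h. On the XVE array 2 of 11 passed, BEL1 higher by 1.66 and PNY lower at -1.04, where 14.5% of all genes were 2-fold apart, a share near that count. BEL1, which patterns ovule integuments, had levels of -2.98, -2.66, -2.84 and -2.48 at 0, 1, 3 and 6 h, -1.31 for XVE and -2.14 for DMSO. It was the only BELL gene of 11 that was 2-fold apart between 6 h estradiol and XVE, at -1.17. Of all genes 8.92% were 2-fold apart there, a share near that count.

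PNY and PNF form dimers with STM and KNAT1 and are needed for the inflorescence meristem. PNY had levels of 0.49, 0.10, 0.08 and 0.11 at 0, 1, 3 and 6 h, -0.55 for XVE and -0.33 for DMSO. Like KNAT2, it was highest at 0 h and lowest on the second slide. PNF had -0.90, -1.52, -1.30 and -1.19 at these times, -1.09 for XVE and -1.08 for DMSO. ATH1, a BELL gene of the vegetative shoot apex, had 1.47, 1.14, 1.95 and 1.77 at these times, 1.65 for XVE and 1.13 for DMSO. PNF and ATH1 overlapped between the slides.

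**Figure D4:**
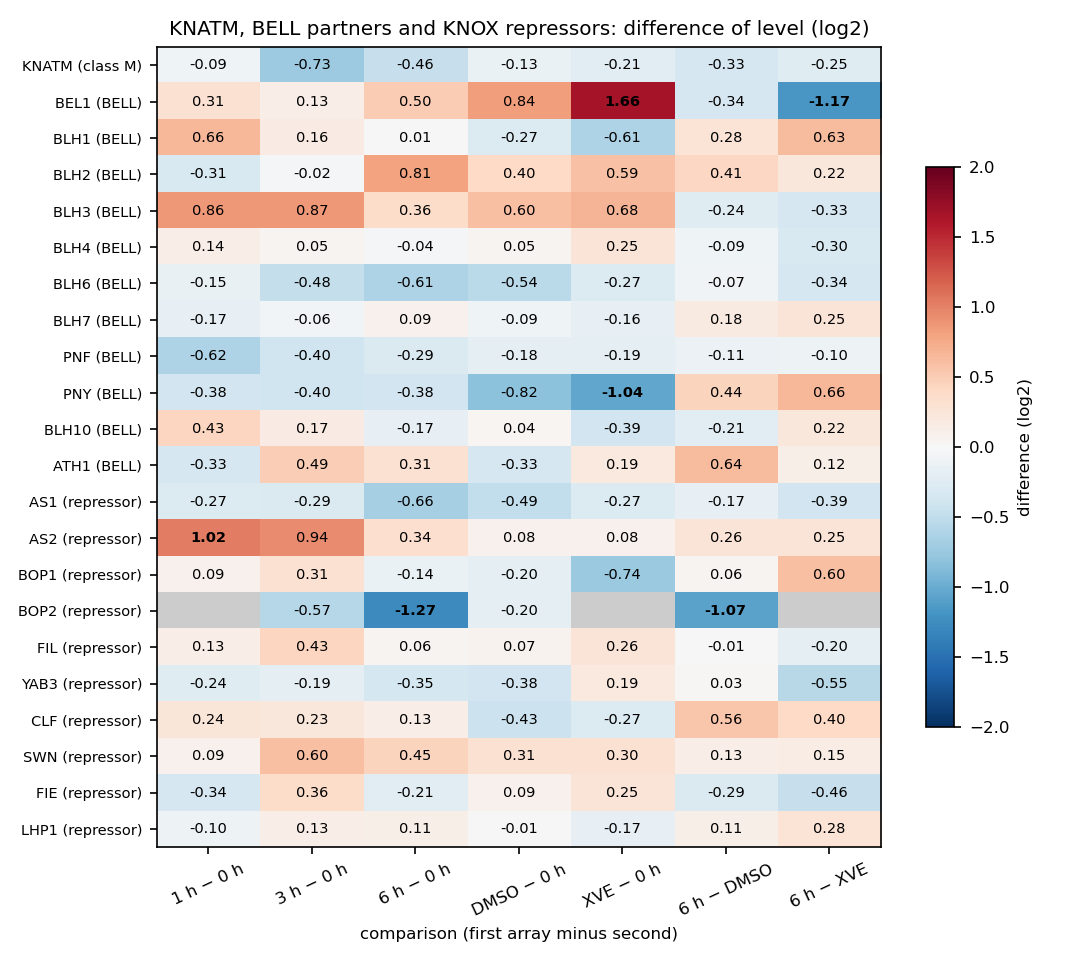
Difference of level (log2) of KNATM, BELL partners and repressors of KNOX genes, with genes down the page and the 7 comparisons across it. Red is higher and blue lower in the first array named, bold marks at least 2-fold, and grey marks a gene not well above background on both arrays. BEL1 at 1.66 and PNY at -1.04 pass 2-fold for XVE against 0 h.

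Of 11 genes that keep class I KNOX genes silent in leaves, 10 were measured in at least 1 comparison, and JLO was in none. AS1, the MYB protein that represses KNAT1 and KNAT2 together with AS2, had levels of 0.26, -0.01, -0.03 and -0.40 at 0, 1, 3 and 6 h, -0.01 for XVE and -0.23 for DMSO. Its 6 h level was the lowest of all 6 arrays, -0.66 from 0 h and short of 2-fold. The AS2 mean was 1.02 higher at 1 h than at 0 h. That value rests on a probe that was well above background on 1 array alone, and the other AS2 probe differed by 0.06. BOP2, a BTB-ankyrin protein that activates AS2 at leaf bases, was lower at 6 h of estradiol, at -1.27 from 0 h and -1.07 from DMSO. Its level of -4.92 at 6 h stood near the lowest level well above background on that array, -5.13. BOP2 was not well above background at 1 h or for XVE, where its levels were lower still, -5.22 and -5.21. At least 2-fold apart were 12.7% of all genes at 1 h and 5.45% at 6 h against 0 h. At 6 h of estradiol against DMSO the share was 3.94%.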

How the data were processed

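Total RNA of 6 pooled samples was labelled with Alexa 555, per the labels' protocols, and hybridised to single-colour Agilent arrays. The deposited processed intensity is background-subtracted and spatially detrended and not scaled between arrays, per the file headers. The files came from Agilent Feature Extraction 10.5.1.1, per the submitters' processing notes. The deposited files also hold median spot and background intensity, an error estimate and flags per spot. The authors' deposited table holds log2 values, and 0 of 43464 probes compared lay more than 0.01 from a constant offset per array to the values used here.

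Levels were log2 processed intensity minus that of the 75th percentile of 43803 noncontrol spots, with outlier spots left out. Of 43603 probes, 139 had no unflagged spot on some array. Probes were named through RefSeq accessions in the TAIR10.1 gene table, where 34285 matched 1 locus and 9318 none. Gene levels average those probes that exceeded background clearly on any array. A gene was called 2-fold apart where it was well above background on both arrays. No test was made, since precision is limited by the number of arrays. All 8 KNOX genes were named with every probe. Of each related list, the members at least 2-fold apart were named, at most 4 per comparison, with CLV3, KNATM, ATH1, PNY, PNF and AS1 in any case. For KNOX genes spanning 1 log2 unit, the 3 genes of nearest profile were named. Members and lists were chosen with earlier results of these data known.

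The 7 other settings were quantile and cyclic loess normalization, normexp with an offset of 50 on median signals, keeping dim probes, the authors' table, the brightest probe, and only genes bright on all 6 arrays. The calculation was tested on simulated data. R 4.3.3, limma 3.58.1, Python 3.11.15, pandas 2.3.3 and numpy 2.4.6 were used. Coordinates and sequences were not used here.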

Additional observations from a re-analysis of the deposited data

How the results depend on the processing

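Of 56 differences (8 KNOX genes in 7 comparisons), all 56 kept their side of 2-fold under quantile or cyclic loess normalization, with dim probes kept, in the authors' table, and with only genes bright on all 6 arrays. Signs turned among these settings for 1 difference, KNAT7 at 6 h estradiol against DMSO, which was 0.03 and became -0.03 with quantile and -0.14 with cyclic loess normalization. Normexp correction kept 55 on their side, with KNAT6 for XVE at -0.81 from 0 h. It turned the sign of 7 differences short of 2-fold, of KNAT1, KNAT3 and KNAT7, up to 0.73 in size, and moved the median of all genes by over 0.1, to -0.19 at 3 h. The brightest probe kept 54, with KNAT1 (BP) for XVE at 1.11 and KNAT5 for DMSO at 3.53 from 0 h, and turned the sign of 7 differences short of 2-fold, of STM, KNAT3, KNAT4 and KNAT7. Leaving out the probes that part the slides, chosen after seeing the data, kept 49. KNOX genes 2-fold apart then numbered 1 for DMSO and 1 for XVE against 0 h, and 0 for 6 h estradiol against DMSO or XVE. KNAT5 turned sign in 4 comparisons, to -0.35 for DMSO and -0.36 for XVE against 0 h, and to 0.25 and 0.26 for 6 h estradiol against DMSO and XVE, since these values are means of its other probes. No paired analysis was possible because each group had 1 array. Dim probes of STM and KNAT3 near background limit those genes.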

Other observations

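Class I KNOX proteins act on gibberellin and cytokinin, and 7 enzymes of these hormones tied to KNOX were listed with the NAC gene CUC1. Of these enzymes 4 were measured in at least 1 comparison (GA3OX1, GA20OX1, GA2OX2 and IPT7), and GA3OX1 was the only one of the 4 found 2-fold apart. GA3OX1, which makes bioactive gibberellin, had levels of -0.71, -1.61, -0.58 and -1.45 at 0, 1, 3 and 6 h, -2.16 for XVE and -1.88 for DMSO. Relative to 0 h it was lower by over 2-fold in DMSO (-1.17) and in XVE (-1.45), both comparisons between slides. In each of these, 3 of the enzymes were measured. Of all genes, 4.07% were at least 2-fold lower for DMSO and 7.25% for XVE. IPT7, a cytokinin synthesis enzyme that STM induces, was well above background at 0, 3 and 6 h, with levels of -3.42, -4.37 and -3.68, and not at 1 h or on the XVE or DMSO array. Of the OVATE proteins that bind KNOX and BELL proteins, OFP2 was 1.33 higher at 6 h of estradiol than on the DMSO array, at -3.05 against -4.38. The DMSO level stood near the lowest well above background on that array, -4.56. Of all genes, 3.94% were at least 2-fold apart in either direction in that comparison. Of 6 secondary wall genes around KNAT7, 3 were measured against 0 h in the time course and for DMSO, and 2 in comparisons with XVE. None of those measured was 2-fold apart, where between 3.94% and 14.5% of all genes were, and the cellulose synthase gene CESA4 had levels between -0.88 and -0.37.

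Among 17987 genes well above background on all arrays, those of profile nearest to KNAT6 were AT1G10650, AT1G16500 and AT1G01130, with root mean square differences of 0.101, 0.105 and 0.108 log2 units over 6 arrays. AT1G16500 had levels of -1.20, -0.75, -1.91 and -2.10 at 0, 1, 3 and 6 h, -2.75 for XVE and -2.51 for DMSO. The arrays ranked in the same order as for KNAT6, and likeness on these arrays is how these genes were picked. Nearest to KNAT3, whose mean includes its dim probe, were AT5G38890 (0.076), AT3G15080 (0.082) and AT4G30800 (0.084). Nearest to KNAT4 were TIM10 (0.158), PC-MYB1 (0.165) and AT5G41690 (0.2), and each of them had 1 probe of 2 that parted the slides. Nearest to KNAT5 were MEE59 (0.063), AT1G78200 (0.098) and FHY1 (0.117), and the first pair had such a probe too.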
